A study of Mus musculus with 12 samples.

Results

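Mitosis is driven by a small set of kinases, spindle proteins and kinetochore subunits, and 36 genes that encode them were followed here in C2C12 cells, a mouse myoblast line that can be kept dividing or made to differentiate. The genes were chosen by symbol, and a gene counted as measured if a probe that names it had a detection p under 0.05 on at least 2 of the 12 arrays. 28 of the 36 genes were measured, out of 10346 genes in all. Ect2, an activator of the small GTPase that drives cytokinesis, had 1 named probe, which did not pass that detection limit. Ccnb1, Ccnb2, Bub1, Nek2, Cenpe, Kif20a and Racgap1 had no named probe in the annotation used, and their levels were not analysed here.

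The series compared 6 groups of 2 arrays of total RNA. DM was wild-type cells taken after 18 h in ITS differentiation medium. The groups siBRG1, siBAF60b and siBAF60c were cells that received Smart Pool siRNA against the SWI/SNF subunits BRG1 (gene Smarca4), BAF60b (Smarcd2) or BAF60c (Smarcd3), and siScramble cells received a scrambled sequence. Those 4 groups were transfected while growing in 15% serum, moved to ITS medium 36 h later and harvested after 18 h there. GM was wild-type cells in growth medium. The labels enter the transfection of both wild-type groups as "control" and do not say whether these cells received a transfection reagent. All arrays came from 1 cell line. The labels number the replicates without calling them separate cultures, so the p-values may rest on technical spread alone.

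As background, CDK1 bound to cyclin A or cyclin B starts mitosis, Aurora and Polo-like kinases build the spindle, and kinetochores tie each chromosome to its microtubules. A checkpoint holds the anaphase-promoting complex in check until every kinetochore is attached, after which separase is released and the cell divides. Myoblasts leave the cell cycle before they differentiate, and most of these genes are transcribed mainly in G2 and mitosis of cycling cells. Many of their promoters carry a cell cycle genes homology region (CHR), bound by the DREAM and MYBL2-MuvB complexes, and CCAAT boxes, bound by NF-Y.

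The promoters of the 5 genes below are shown because, among the genes that passed the test for a fall in DM against GM, they had the largest falls in a window that holds a CHR. They were chosen for holding one, so its presence in them is not a finding. Each is the RefSeq window from 250 bases before to 50 bases after the start of transcription (build GRCm38.p6), written 5′ to 3′ on the gene's strand. Capitals mark the letters TTTGAA or TTCGAA (CHR) and CCAAT on either strand, so that TTCAAA and ATTGG are the same motifs read from the other strand. No CHR overlapped a CCAAT box in these 5 windows. Cdk1, the kinase that starts mitosis, has its window at chr10:69352863-69353162 on the minus strand. Spc25, a subunit of the NDC80 kinetochore complex, is at chr2:69206164-69206463 on the minus strand. Anln, the contractile ring scaffold anillin, is at chr9:22389157-22389456 on the minus strand. Top2a, topoisomerase II alpha, which untangles sister chromatids, is at chr11:99024140-99024439 on the minus strand. Cenpa, the histone H3 variant of centromeres, is at chr5:30666636-30666935 on the plus strand.
Cdk1: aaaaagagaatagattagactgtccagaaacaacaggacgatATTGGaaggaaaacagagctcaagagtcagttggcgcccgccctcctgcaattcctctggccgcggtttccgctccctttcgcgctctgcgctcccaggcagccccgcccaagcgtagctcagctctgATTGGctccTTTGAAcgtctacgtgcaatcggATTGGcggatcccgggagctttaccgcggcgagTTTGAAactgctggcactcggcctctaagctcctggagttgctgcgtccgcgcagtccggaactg
Spc25: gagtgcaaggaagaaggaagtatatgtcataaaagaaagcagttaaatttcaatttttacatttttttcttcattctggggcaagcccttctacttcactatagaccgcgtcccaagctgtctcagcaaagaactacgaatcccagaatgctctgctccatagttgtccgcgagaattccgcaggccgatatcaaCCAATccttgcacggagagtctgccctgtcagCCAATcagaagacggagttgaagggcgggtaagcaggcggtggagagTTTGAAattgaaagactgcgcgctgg
Anln: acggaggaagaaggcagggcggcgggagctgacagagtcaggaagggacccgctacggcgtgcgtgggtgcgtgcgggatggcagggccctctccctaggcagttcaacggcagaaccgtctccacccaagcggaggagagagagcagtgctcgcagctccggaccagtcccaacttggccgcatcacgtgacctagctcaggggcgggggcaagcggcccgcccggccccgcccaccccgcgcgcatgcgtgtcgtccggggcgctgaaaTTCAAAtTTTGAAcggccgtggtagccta
Top2a: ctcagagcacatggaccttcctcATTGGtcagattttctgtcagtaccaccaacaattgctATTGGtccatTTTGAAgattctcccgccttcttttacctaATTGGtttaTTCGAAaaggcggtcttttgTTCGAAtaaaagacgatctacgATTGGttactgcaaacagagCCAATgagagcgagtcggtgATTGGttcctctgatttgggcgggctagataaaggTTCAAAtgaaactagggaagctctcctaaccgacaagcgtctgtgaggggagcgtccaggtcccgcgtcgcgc
Cenpa: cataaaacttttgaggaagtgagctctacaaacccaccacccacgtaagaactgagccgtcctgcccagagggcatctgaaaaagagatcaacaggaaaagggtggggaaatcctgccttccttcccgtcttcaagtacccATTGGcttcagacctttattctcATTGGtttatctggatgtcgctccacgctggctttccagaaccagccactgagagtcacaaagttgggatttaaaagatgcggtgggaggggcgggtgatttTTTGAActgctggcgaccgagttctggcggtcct

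RefSeq windows were matched by symbol for 30 of the 36 genes, in 32 windows, since 2 genes have 2 starts. Ccna2, Tpx2, Incenp, Kif20a, Cdc25c and Aurkb were not matched. A CHR on either strand stood in 25 of the 32 windows (78.1%), against 19.2% of all 32851 windows of the same length. From 50 bases before to 50 after the start, a CHR stood in 24 of the 32 windows and in 5.31% of all windows. A CCAAT box stood in 78.1% of the windows of the mitotic genes and in 37.4% of all windows, and both motifs in 68.8% against 7.52%. The E2F motifs TTTGGCG or TTTCCCG, on either strand, stood in 6.25% of the windows of the mitotic genes and in 4.84% of all windows. By gene, 23 of the 30 had a CHR and 20 had both motifs. In Cdca8 a CHR and a CCAAT box shared a letter. The windows of Birc5, Ccnb1, Cenpe, Mad2l1, Nek2, Nuf2 and Nusap1 held no CHR. Of these, Birc5, Mad2l1 and Nuf2 were among the 8 genes with the largest fitted falls in DM, as given below. A CHR stood in 13 of the 16 windows of measured genes that passed the test for a fall in DM against GM. It stood in 20 of the 24 windows of all measured mitotic genes. These matches are letters found in a window and were not measured as binding sites.

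**Figure D1:**
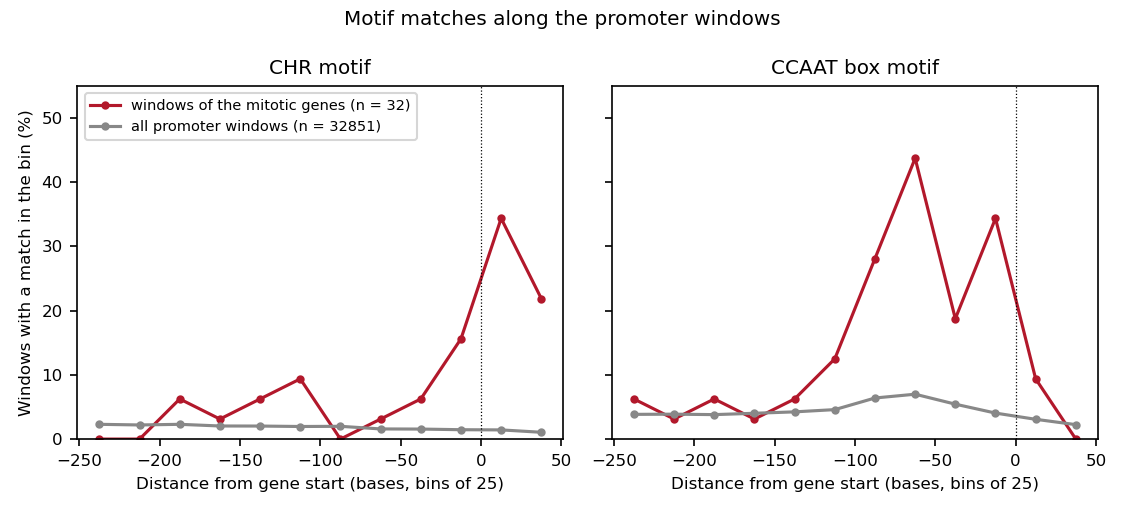
Position of CHR and CCAAT matches along the promoter window. The x axis is the distance from the start of transcription in bases and the y axis the percent of windows with a match, for the 32 windows of the mitotic genes and for all 32851 windows. In the mitotic genes the CHR share was highest, at 34.4%, from 0 to 25 bases after the start, and the CCAAT share was highest, at 43.8%, from 75 to 50 bases before it.

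The precision of all values is limited by 2 arrays a group. The share of probes detected ran from 28.1% (DM replicate 2) to 34.0% (GM replicate 1), and mean raw signal ran from 335 (siBAF60c replicate 1) to 839 (GM replicate 1). Replicates correlated over all genes at Pearson r from 0.979 to 0.988, except in DM, where r was 0.945 and 6 of the 28 mitotic genes differed by over 1 on the log2 scale between the arrays. Array identifiers placed the samples on 3 BeadChips, and GM and DM shared both of theirs, while siBRG1 and siScramble shared only 1. Of 10 myoblast and muscle markers, 9 were measured. Of markers of other cell types, Adipoq, Adgre1, Pecam1 and Nefl were detected on 0 arrays, while Sox9 was detected on all 12, Map2 and Pparg on 11, Csf1r on 10 and Kdr on 5. Each siRNA target was lower than in siScramble without overlap of the arrays, by log2 differences of -0.92 for Smarca4 in siBRG1, -1.55 for Smarcd2 in siBAF60b and -0.94 for Smarcd3 in siBAF60c, but none passed the test (limma adjusted p 0.515, 0.679 and 0.858).

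In wild-type cells, most of the measured mitotic genes were lower after the shift to differentiation medium. Values are background-corrected, quantile-normalized log2 intensities, and a gene is said to rise or fall where the limma test adjusted over all 10346 genes gave p under 0.05. In DM against GM, 18 of the 28 mitotic genes fell and 0 rose, while 8.93% of all genes fell and 10.5% rose. The median log2 difference was -1.30 over the 28 genes and 0.07 over all genes, and the range of fitted differences ran from -2.55 to -0.41. For 4 genes not detected in DM (Nuf2, Ube2c, Cenpf and Ttk) only a lower bound of the fall is known, and the median was also -1.30 with those genes at their bounds. The DM arrays lay below both GM arrays in 27 of the 28 genes, against 24.1% of all genes, with Kif23 as the exception. Within each of the BeadChips that held both groups, the median was -1.33 and -1.13. On the first of these 27 genes were below 0, and Kif23 was higher in DM there, by 1.23. In RNA from whole cultures, fewer cycling cells and less of these RNAs per cell cannot be told apart. Pparg, an adipocyte marker, moved the same way, with 5.52 and 5.35 in DM, against 7.83 and 7.77 in GM. It was 1 of 5 adipocyte markers measured, Adipoq was detected on 0 arrays, and the part of Pparg-expressing cells in the result was not tested.

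**Figure D2:**
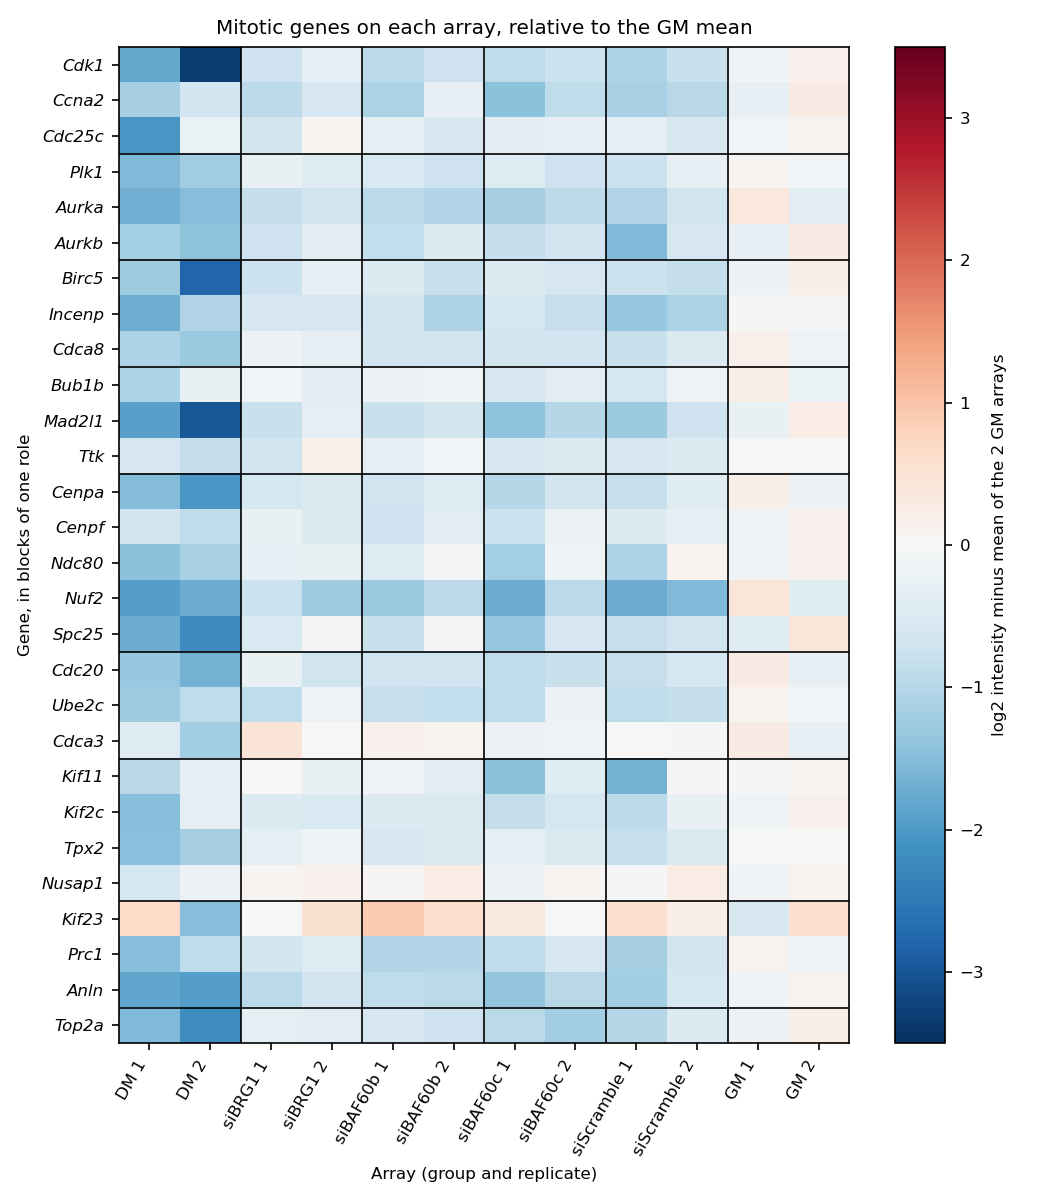
Level of each of the 28 measured mitotic genes on each of the 12 arrays, as log2 intensity relative to the mean of the GM arrays, with genes in rows by role and arrays in columns by group. DM had the lowest of the 6 group means in 26 genes, and GM had the highest in 25.

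Among the genes of CDK1 activation, Cdk1 had the largest fitted fall by the probes used. On the BeadChip of DM replicate 1, however, its difference of -1.64 was smaller than that of Cdc25c, at -1.96. Outside these genes, Nuf2 (-2.38), Aurka (-2.07), Incenp (-1.78), Cenpa (-1.75) and Anln (-1.68) also had larger differences there. Cdk1 had log2 intensities of 10.04 and 8.51 in DM, against 11.68 and 11.97 in GM. Both DM arrays were below both GM arrays, and they differed from each other by more than the GM arrays did. The log2 difference was -2.55 (SE 0.39, adjusted p 0.000435), a 5.84-fold fall, and -1.78 without DM replicate 2. Ccna2, cyclin A2, differed by -0.93 (adjusted p 0.0695) and did not pass. Cdc25c, the phosphatase that removes inhibitory phosphates from CDK1, differed by -1.14 (adjusted p 0.0843) and did not pass. Both genes were detected on only 1 DM array.

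All 3 measured kinases of the Polo and Aurora families fell. Aurka, which acts at spindle poles, fell 3.01-fold in DM against GM (adjusted p 0.00179). Plk1, which acts at centrosomes and kinetochores, fell 2.60-fold (adjusted p 0.00289). Aurkb, the kinase of the chromosomal passenger complex, fell 2.47-fold (adjusted p 0.0141). Its 3 partners in that complex fell as well. Birc5, survivin, had 11.05 and 9.52 in DM, against 12.07 and 12.50 in GM. Both DM arrays lay below both GM arrays, with DM replicate 2 far below the other. The log2 difference was -2.0 (SE 0.40, adjusted p 0.0029), and it was -1.23 without DM replicate 2. Incenp, the scaffold of the complex, fell 2.62-fold, and Cdca8, borealin, fell 2.28-fold. Aurkb did not pass without DM replicate 2 or without GM replicate 2 (adjusted p 0.0642 and 0.151), nor did Cdca8 without GM replicate 1 (adjusted p 0.059).

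Of the spindle checkpoint genes, Mad2l1, which encodes the MAD2 inhibitor of CDC20, had 9.24 and 8.15 in DM, against 10.88 and 11.40 in GM. Both DM arrays were far below both GM arrays. The fall was 5.42-fold (log2 -2.44, SE 0.36, adjusted p 0.000339). The kinase gene Bub1b, with a log2 difference of -0.66, did not pass (adjusted p 0.166). Ttk, another checkpoint kinase, was not detected on either DM array, was at least 1.12-fold lower there and did not pass (adjusted p 0.112).

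At kinetochores and centromeres, 4 of 5 measured genes fell. Spc25 had 7.73 and 7.25 in DM, against 9.04 and 9.91 in GM, a 3.96-fold fall (log2 -1.99, SE 0.37, adjusted p 0.00196). Nuf2, another NDC80 complex subunit, had 4.99 and 5.19 in DM, against 7.37 and 6.50 in GM. Neither DM array detected Nuf2, so its fall was at least 2.69-fold (adjusted p 0.00217), computed against the lowest signal detected on those arrays where that was higher than its own. Cenpa had 12.42 and 11.92 in DM, against 14.16 and 13.73 in GM, a 3.42-fold fall (log2 -1.78, SE 0.29, adjusted p 0.000674). In each of these 3 genes both DM arrays were below both GM arrays. Ndc80, which gives the complex its name, fell 2.45-fold (adjusted p 0.0355), but did not pass without any one of the DM or GM arrays (adjusted p from 0.0681 to 0.197), and passed in 8 of 13 alternatives. Cenpf, a large outer kinetochore protein, was not detected in DM, was at least 1.19-fold lower there and did not pass (adjusted p 0.069).

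Of the genes for ubiquitin-dependent mitotic exit, Cdc20, the activator of the anaphase-promoting complex, fell 2.83-fold (adjusted p 0.00201). Ube2c, its ubiquitin-conjugating enzyme, was not detected in DM and fell at least 1.21-fold (adjusted p 0.0284). Its call was lost in most alternatives, and it passed in 5 of 12 (adjusted p from 0.0192 to 0.152), with losses among others without DM replicate 1 or without either GM array. Cdca3, an adaptor for degradation of the CDK1 inhibitor WEE1, differed by -0.83 and did not pass (adjusted p 0.077). Among spindle motors and microtubule proteins, Tpx2, the activator of Aurora A, fell 2.48-fold (adjusted p 0.00258). The kinesin that separates spindle poles, Kif11, differed by -0.65 (adjusted p 0.357). The microtubule-depolymerizing kinesin Kif2c differed by -0.90 (adjusted p 0.0899) and the spindle protein Nusap1 by -0.41 (adjusted p 0.31).

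In cytokinesis, Anln had 10.21 and 10.10 in DM, against 11.89 and 12.15 in GM, a 3.64-fold fall (log2 -1.86, SE 0.28, adjusted p 0.000396). The arrays of each group lay close together and the groups did not overlap. Prc1, which bundles the microtubules of the central spindle, fell 2.28-fold (adjusted p 0.0107), a call that was lost when GM replicate 1 was left out (adjusted p 0.0897). Kif23, a kinesin of the midbody, had 10.19 and 8.02 in DM, against 8.95 and 10.08 in GM. The Kif23 arrays overlapped and the difference of -0.41 did not pass (adjusted p 0.639). Top2a had 7.87 and 7.24 in DM, against 9.20 and 9.61 in GM. Both DM arrays were below both GM arrays, and the fall was 3.61-fold (log2 -1.85, SE 0.30, adjusted p 0.000632).

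**Figure D3:**
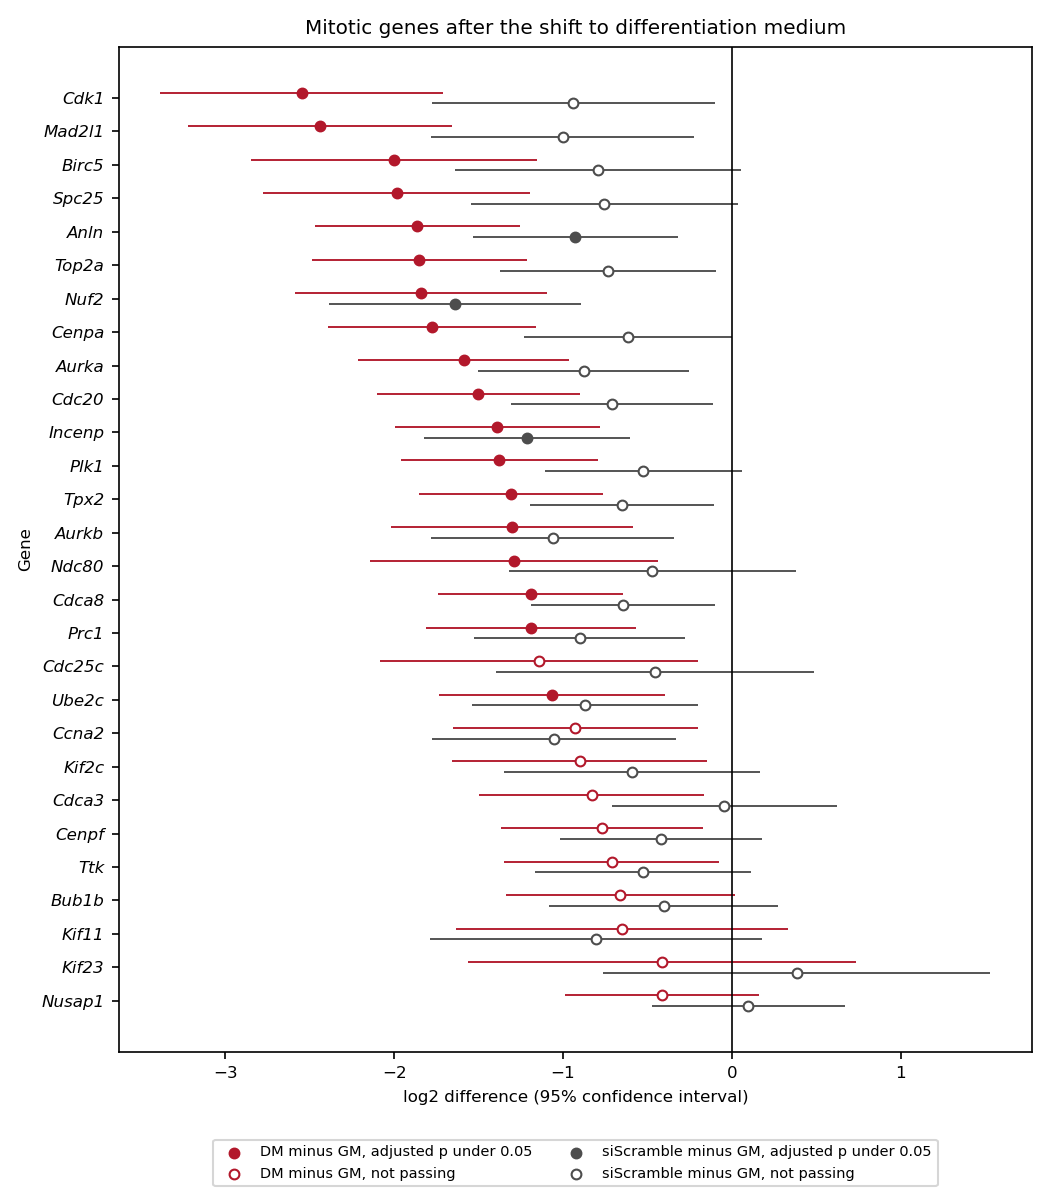
Log2 difference from GM (x axis) for each of the 28 mitotic genes (y axis), with DM above siScramble in each row, lines for 95% confidence intervals and filled points for limma adjusted p under 0.05. All 28 DM points lie below 0 and 18 are filled, while 26 siScramble points lie below 0 and 3 are filled. The siScramble point of Kif23, at 0.38, is of its brightest probe, and its 2 other probes had -1.42 and -1.50. The DM points of Nuf2, Ube2c, Cenpf and Ttk rest on undetected signals, as do the siScramble points of Ccna2, Ttk and Ube2c.

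For 14 genes several probes passed the detection limit, and the brightest stood for the gene. The other probes of Kif23 differed from the one used. Its 2 other probes had log2 differences of -2.12 and -1.82 in DM against GM and both passed when probes were tested singly (limma adjusted p over probes 9.5e-05 and 0.000798), against -0.41 for the brightest. A dimmer Anln probe had a difference of 0.18 (adjusted p 0.768). The other Cdk1 probe, detected on 2 arrays only, had -0.76 (adjusted p 0.0716). The second Cdca8 probe had a larger difference, of -2.45, than the one used, of -1.19. Other probes of Birc5 had larger differences, of -2.90 and -2.99, than the -2.0 of the one used, and a second Spc25 probe had -2.82, against -1.99, and all of these passed. Of 4 Cdc20 probes 1 had -0.69 and did not pass (adjusted p 0.192).

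The wider mitotic machinery was compared through 5 lists of other genes, with 85 measured. Like the mitotic genes, all gene lists used here were chosen with earlier results of these data known, so their counts are descriptive. In DM against GM, 46 of the 85 fell and 1 rose, with a median log2 difference of -1.0, while 8.93% of all genes fell and 10.5% rose. Of 26 other kinetochore and centromere genes 18 fell, among them Cenpq (-2.42, adjusted p 0.0012) and Cenpw (-2.29, adjusted p 0.00229), both of the inner kinetochore network. Of 20 other spindle and cytokinesis genes 14 fell, among them the abscission factor Cep55 (-1.92) and the spindle protein Ckap2, which was not detected in DM and fell at least 2.71-fold. Of 16 condensin and cohesin genes 8 fell, among them the centromeric cohesion protector Sgo1 (-1.58) and the condensin ATPase Smc4, which was not detected in DM and fell at least 2.24-fold. Of 12 mitotic entry regulators 5 fell, among them Haspin, the histone H3 kinase (-1.61), and Bora, the cofactor of Aurora A in activating PLK1, which was not detected in DM and fell at least 2.49-fold. Cenpq and Haspin were detected on only 1 DM array each. The anaphase-promoting complex list differed in its median, which was 0.37 over 11 genes. In it the subunit gene Anapc7 rose (1.49, adjusted p 0.00494). Ube2s, a ubiquitin chain-extending enzyme, was detected on the GM arrays only, so it passed the detection limit through GM alone. Its value in DM was at least 1.33-fold lower (adjusted p 0.00235), which that filter made likely, and no weight is put on it. Ube2s is nonetheless counted among the genes that fell here and in siScramble against GM.

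Among 21 genes known to regulate transcription of G2 and mitotic genes, 8 fell and 4 rose in DM against GM, beside the 8.93% of all genes that fell and 10.5% that rose. The 2 largest differences were rises in inhibitors of cyclin-dependent kinases. Cdkn1c, p57, had 15.17 and 15.80 in DM, against 8.65 and 9.15 in GM (log2 difference 6.59, SE 0.32, adjusted p 2.91e-08). Cdkn1a, p21, had 13.24 and 13.70 in DM, against 10.90 and 10.57 in GM (2.73, SE 0.28, adjusted p 1.18e-05). Neither gene's arrays came near those of the other group. Of 37 DNA replication genes, 30 fell, with a median of -1.38, and the largest fitted falls were in Tyms, thymidylate synthase (-2.52, adjusted p 0.00304), and Tk1, thymidine kinase (-2.24, adjusted p 8.31e-05).

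Cells transfected with scrambled siRNA and moved to the same medium showed smaller differences from GM in the mitotic genes. In siScramble against GM, 3 of 28 genes fell and 0 rose, while 5.95% of all genes fell. The median was -0.72, and -0.48 on the BeadChip that both groups shared, and 22 genes had both siScramble arrays below both GM arrays, against 28.3% of all genes. The 3 genes were Nuf2, with 5.21 and 5.38 in siScramble, against 7.37 and 6.50 in GM (log2 difference -1.64, SE 0.35, adjusted p 0.00608), Incenp (-1.21, SE 0.28, adjusted p 0.0113) and Anln (-0.93, SE 0.28, adjusted p 0.0459). Nuf2 was detected on only 1 of the 2 siScramble arrays. The count of 3 depended on single arrays. It was 0 without siScramble replicate 1 or without GM replicate 1, and 5 without siScramble replicate 2. In the same comparison 28 of the 37 DNA replication genes fell, with a median of -1.22, and 18 of the 85 other mitotic genes fell, beside the 5.95% of all genes.

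The difference between the differentiation medium groups was tested directly. In siScramble against DM, 3 of 28 mitotic genes were higher past the test and 0 lower, while 1.66% of all genes were higher. The median log2 difference was 0.67 over the 28 mitotic genes. Over the 85 other mitotic genes it was smaller, at 0.26, with 3 higher past the test and 24 below 0. Among them the 16 condensin and cohesin genes had a median of 0.05, with 7 below 0. Over the 37 DNA replication genes the median was 0.03, and 0 passed (5 at an unadjusted p under 0.05, against 18.4% of all genes). On the shared BeadChip the mitotic median was 0.88. 18 mitotic genes had both siScramble arrays above both DM arrays, against 16.5% of all genes. Cdk1 had 10.73 and 11.04 in siScramble, against 10.04 and 8.51 in DM (1.61, SE 0.39, adjusted p 0.0396). Mad2l1 had 9.85 and 10.42 in siScramble, against 9.24 and 8.15 in DM (1.44, SE 0.36, adjusted p 0.0466). Cenpa had 13.15 and 13.51 in siScramble, against 12.42 and 11.92 in DM (1.16, SE 0.29, adjusted p 0.043). All siScramble arrays lay above the DM arrays in these genes, and DM replicate 2 was the lowest array in each. These are values of the brightest probes. The second Mad2l1 probe had a difference of 1.27. The dimmer Cdk1 probe, detected on 2 arrays, had -0.08, and the dimmer Cenpa probe, detected on 5, had -0.06. Spc25 was not past the test, with 8.67 and 8.77 in siScramble, against 7.73 and 7.25 in DM. With BeadChip as a block Cdk1 and Mad2l1 did not pass (adjusted p 0.0753 and 0.0573). Without DM replicate 2 the count was 1 and without DM replicate 1 it was 10. It was 0 without either siScramble array, with arrays scaled to a common median, with all probes of a gene averaged, and when only these groups were fitted.

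Map2, a marker of neurons, moved with this contrast, with 8.16 and 7.59 in siScramble, against 5.98 and 5.78 in DM. It was 1 of 4 neuronal markers measured. Nefl was detected on 0 arrays and Snap25 on 1, and Tubb3 had no named probe. Pparg was also higher, with 6.15 and 6.97 in siScramble, against 5.52 and 5.35 in DM. Of the muscle markers, Myog, Actc1, Ckm and Tnnt3 had both siScramble arrays below both DM arrays. For Myog these were 11.17 and 10.17, against 11.77 and 11.83. The arrays of Myod1, Myf5, Des, Cdh15 and Chrna1 overlapped. The part of Map2-expressing cells in the result was not tested, nor was that of the differences in Pparg and the muscle markers.

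The groups with siRNA against SWI/SNF subunits were also set against GM. In siBRG1, 0 of 28 genes fell by the limma test, while 2.73% of all genes fell. The median was -0.44, and 4 genes had an unadjusted p under 0.05, against 18.4% of all genes. In siBAF60b, 2 genes fell, Prc1 (-1.04, adjusted p 0.0339) and Aurka (-0.99, adjusted p 0.0441), while 4.57% of all genes fell, and the median was -0.63. In siBAF60c, 6 genes fell, while 4.87% of all genes fell, and the median was -0.72. These were Nuf2 (-1.35), Mad2l1 (-1.2), Anln (-1.18), Ccna2 (-1.16), Top2a (-1.07) and Aurka (-1.05), with adjusted p from 0.0152 to 0.0486. Nuf2 and Ccna2 were detected on only 1 siBAF60c array each. Of the 28 genes, 19 in siBRG1, 22 in siBAF60b and 24 in siBAF60c had both arrays below both GM arrays. Of all 10346 genes, 2802, 2914 and 2892 did so in the same order. On the BeadChip shared with GM the median was -0.39 in siBRG1, -0.49 in siBAF60b and -0.57 in siBAF60c. With BeadChip as a block the siBAF60b count was 0, and the siBAF60c count was 3. The siBAF60b count was also 0 without either siBAF60b array or without GM replicate 1. The siBAF60c count was 0 without siBAF60c replicate 1 or without GM replicate 1, 3 without siBAF60c replicate 2 and 2 without GM replicate 2. These comparisons share the GM arrays with those of DM and siScramble.

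**Figure D4:**
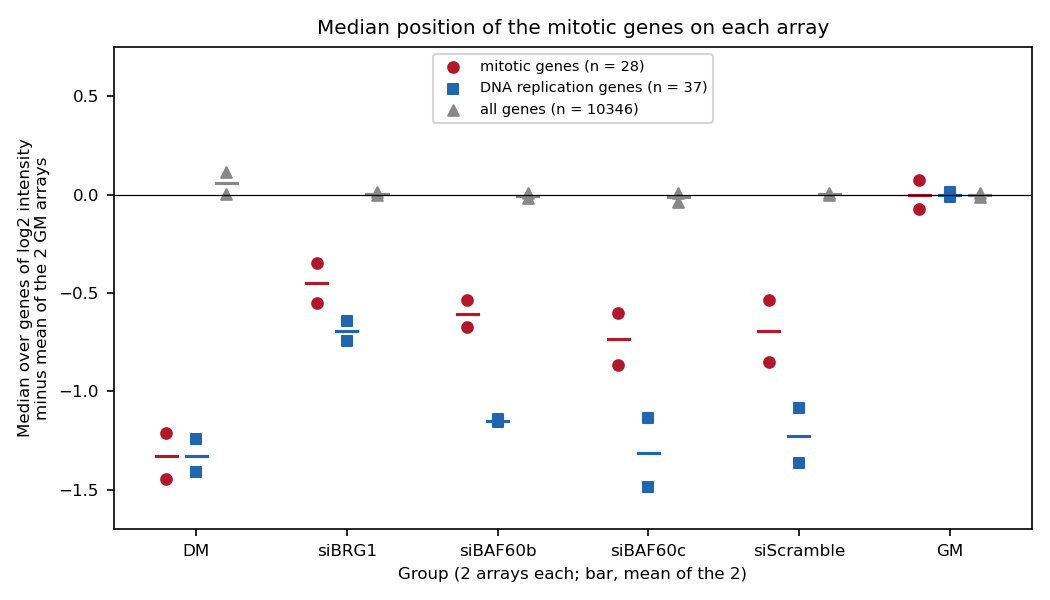
Median log2 level of the 28 mitotic genes, the 37 DNA replication genes and all 10346 genes on each array, relative to the mean of the GM arrays (y axis), by group (x axis). Points are arrays and bars are the mean of a group. The mitotic medians were -1.45 and -1.21 in DM. The siBRG1 arrays were at -0.55 and -0.35 and the siBAF60b arrays at -0.67 and -0.54. The siBAF60c arrays were at -0.86 and -0.60, the siScramble arrays at -0.85 and -0.54, and the GM arrays at -0.08 and 0.08.

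Against siScramble, none of the 3 siRNA treatments moved a mitotic gene past the limma test. Counts of genes above or below 0 in these comparisons include Ccna2, Ttk and Ube2c, which were detected on 0 siScramble arrays. In siBRG1 against siScramble, 0 of 28 genes passed, while 0.280% of all genes passed. At an unadjusted p under 0.05 there was 1 mitotic gene, Incenp, against 8.07% of all genes. The median log2 difference was 0.27, with 27 of 28 genes above 0, and 8 genes had both siBRG1 arrays above both siScramble arrays, against 22.3% of all genes. On the BeadChip that both groups shared, the median was 0.44 and 5 genes were below 0. The median was 0.12 without siScramble replicate 1 and 0.41 without siScramble replicate 2. Kif11 had 7.53 and 7.29 in siBRG1, against 5.91 and 7.58 in siScramble (0.66, 95% interval -0.32 to 1.65, adjusted p 0.816), and the arrays overlapped. Nuf2 had 6.18 and 5.68 in siBRG1, against 5.21 and 5.38 in siScramble (0.64, interval -0.11 to 1.38, adjusted p 0.715). Incenp had 9.11 and 9.08 in siBRG1, against 8.35 and 8.57 in siScramble (0.63, interval 0.02 to 1.24, adjusted p 0.585). The arrays of Nuf2 and Incenp did not overlap, and Nuf2 was detected on only 1 siScramble array.

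The DNA replication genes showed a larger median in the same comparison. All 37 were above 0 in siBRG1 against siScramble, as were 5348 of all 10346 genes, and the median of the 37 was 0.43. Both siBRG1 arrays lay above both siScramble arrays in 30 of the 37, against 22.3% of all genes. Cdc6, which loads the replicative helicase, was the only one to pass. It had 7.82 and 7.56 in siBRG1, against 6.04 and 6.48 in siScramble (1.43, SE 0.26, adjusted p 0.0426). Of the 85 other mitotic genes 0 passed and 65 were above 0.

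In siBAF60b against siScramble, 0 of 28 genes passed by limma, while 0.00967% of all genes passed. An unadjusted p under 0.05 was reached by 0 mitotic genes and 3.53% of all genes. The median was 0.11, with 0.22 and -0.0019 on the BeadChips that the groups shared. It was -0.07 without siScramble replicate 1 and 0.26 without siScramble replicate 2. Kif11 had 7.42 and 7.19 in siBAF60b, against 5.91 and 7.58 in siScramble (0.56, interval -0.43 to 1.54). Nuf2 had 5.62 and 6.01 in siBAF60b, against 5.21 and 5.38 in siScramble (0.52, interval -0.22 to 1.27). Aurkb had 7.69 and 8.07 in siBAF60b, against 7.01 and 7.98 in siScramble (0.39, interval -0.33 to 1.10). Kif11 and Aurkb overlapped between the groups and Nuf2 did not, with Nuf2 detected on only 1 siScramble array.

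In siBAF60c against siScramble, 0 of 28 genes passed by limma, while 0.00967% of all genes passed. Here too 0 mitotic genes had an unadjusted p under 0.05, against 4.61% of all genes. The median was -0.09, with 19 genes below 0, and it turned to 0.10 without siScramble replicate 2 and to 0.09 without siBAF60c replicate 1. Incenp had 9.06 and 8.86 in siBAF60c, against 8.35 and 8.57 in siScramble (0.50, interval -0.11 to 1.11). Top2a had 8.47 and 8.20 in siBAF60c, against 8.41 and 8.93 in siScramble (-0.34, interval -0.97 to 0.30). Ube2c had 4.89 and 5.58 in siBAF60c, against 4.88 and 4.93 in siScramble, where it was detected on 1 siBAF60c array and 0 siScramble arrays, so no difference is given. Of these only Incenp had arrays that did not overlap. In every one of the 3 comparisons the intervals given reached at least 0.30 above siScramble. In siBAF60c that of Top2a also reached down to -0.97. Rises of 0.30 in these genes were not excluded by a p that missed the threshold. Nor were falls of that size in Kif11 in siBRG1 and siBAF60b, Aurkb in siBAF60b and Top2a in siBAF60c.

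**Figure D5:**
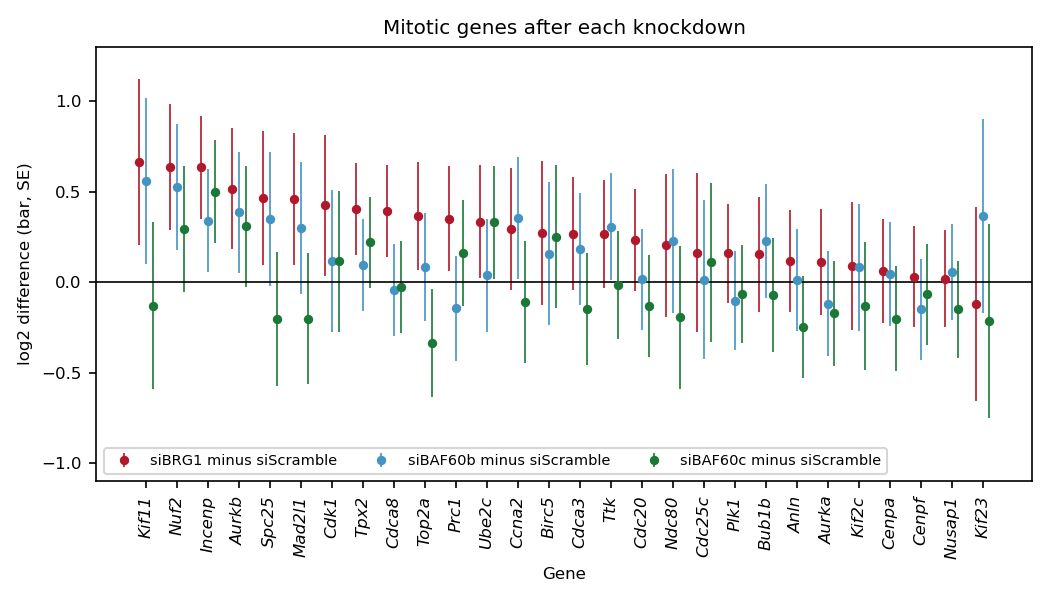
Log2 difference from siScramble (y axis) in siBRG1, siBAF60b and siBAF60c for each of the 28 mitotic genes (x axis), with bars of 1 SE. No point passed the limma test, and 27 points in siBRG1, 23 in siBAF60b and 9 in siBAF60c lie above 0. The points of Ccna2, Ttk and Ube2c rest on undetected siScramble signals.

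The siRNA groups were also compared with each other. In siBRG1 against siBAF60c, 0 of 28 genes passed by limma, while 0.116% of all genes passed, and 1 had an unadjusted p under 0.05, against 7.08% of all genes. All 28 differences were above 0, with a median of 0.27, and 13 genes had both siBRG1 arrays above both siBAF60c arrays, against 22.4% of all genes. On the shared BeadChip the median was 0.38 and 6 genes were below 0. In siBRG1 against siBAF60b, 0 genes passed by limma, while 0.0870% of all genes passed. The median was 0.12, and 0 mitotic genes had an unadjusted p under 0.05, against 6.05% of all genes.

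Across the 12 arrays the mitotic genes varied together to different degrees. Over the 378 pairs of measured genes, Pearson r had a median of 0.67 and ran from -0.39 to 0.97. The arrays share groups and normalization, so this is a description of the 12 arrays. Kif23, by the probe used, had the lowest median r with the other genes, at 0.14.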

How the data were processed

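Linear intensity and detection p-value columns for 45281 probes on 12 arrays formed the deposited scanner table, per the file headers. A second deposited table, processed by the authors, gave linear intensity for 23165 of those probes with equal array quantiles. The authors' software and background setting are not given in the sources used here. From the scanner values, neqc (limma 3.58.1, R 4.3.3, offset 16) corrected the background, quantile normalized and took log2. The detection limit (p under 0.05 on 2 or more arrays) left 17565 probes. Of 23165 processed probes, 19589 name 1 gene in GEO's platform annotation, 8 name several and 3568 none. The brightest kept probe stood for each of 10346 genes. A model with 6 group means over all 12 arrays was fitted with lmFit and eBayes, with Benjamini-Hochberg adjustment over all genes and calls at 0.05. The code was tested on simulated data. With 2 arrays against 2, an exact permutation test of a single value cannot give less than 0.333. Values are never compared between probes of different genes. Where no probe of a gene was detected on either array of a group, a fold is a lower bound.

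The mitotic genes and gene lists were chosen with earlier results of these data known. Array values are given for the 8 largest fitted falls in DM, the 3 largest differences of each siRNA group from siScramble and of siScramble from DM, and the list genes named are the 2 largest fitted changes of each list and any that passed in an siRNA group against siScramble (Cdc6). The array values of Kif23 and the other probes of Birc5 and Spc25 were chosen after their values were seen. Motifs were searched on both strands of RefSeq windows. Alternatives changed the background correction, scaling, detection limit, probe rule, blocks for BeadChip and replicate number, the groups fitted and the arrays included.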

Additional observations from a re-analysis of the deposited data

Results flagged for a closer look

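For 3 genes the change against GM differed between siScramble and DM in a direct limma test of the brightest probes. Dimmer probes of Cdk1 and Cenpa did not show it, as given above. The log2 change in siScramble minus that in DM was 1.61 for Cdk1, 1.44 for Mad2l1 and 1.16 for Cenpa, which are the siScramble against DM differences given above. For Cdca3 the arrays of siBAF60b lay above both siScramble arrays and those of siBAF60c lay below them. The siBAF60b minus siBAF60c difference of 0.334 was not tested. It held for the probe used. A second Cdca3 probe, detected on all 12 arrays, lay on the same side in both groups, by 0.49 in siBAF60b and 0.19 in siBAF60c against siScramble. Over all 10346 genes, 145 (1.4%) had arrays placed as those of the Cdca3 probe used, with siBAF60b above and siBAF60c below siScramble.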

How the results depend on the processing

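Over all alternatives, 426 pairs of a called gene and an alternative were computed, of which 329 kept the call, 97 lost it and 0 turned direction. The DM against GM count of 18 genes was 11 when only these groups were fitted and from 14 to 19 when single arrays were left out. The siScramble against GM count of 3 was 9 with no background correction, with the authors' processed values and when only these groups were fitted, 5 with probes averaged, and from 0 to 5 without single arrays. The siBRG1 against GM count of 0 was 1 with no background correction, with the authors' processed values and with only these groups fitted. The siBAF60b against GM count of 2 was 5 with no background correction and with the authors' processed values, 0 with median scaling and with BeadChip as a block, 7 with only these groups fitted, and from 0 to 2 without single arrays. The siBAF60c against GM count of 6 was 3 with median scaling and with BeadChip as a block, and from 0 to 3 without single arrays. The siScramble against DM count of 3 was 6 with no background correction, 0 with median scaling, with probes averaged and with only these groups fitted, and from 0 to 10 without single arrays. In a fit without the DM arrays, chosen after seeing the data, the counts against GM were 10 in siScramble, 6 in siBAF60b and 10 in siBAF60c. The causes were not tested. All 5 comparisons among siRNA groups gave 0 called mitotic genes under every alternative run.

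With the replicate number as a block, the siScramble against GM count was 6 and DM against GM 20, and no other count moved by over 1.5 times. Deviations of same-numbered arrays correlated from 0.0034 to 0.322 over the comparisons, and from 0.119 to 0.269 between siRNA groups, several of which also share BeadChips by number. The labels do not say that the numbers pair the arrays. Median scaling shifted the median of all genes to -0.48 in DM against GM, with the mitotic genes at -2.13, and to 0.32 in siBRG1 against siScramble, with the mitotic genes at 0.65.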
